A study of Mus musculus with 9 samples.

Results

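The genes described here drive or inhibit the cell division cycle, and their transcript levels were compared in the epidermis of adult hairless mice with and without inactivation of Alox12b. The set was a list of 43 genes, each read by 1 probe set, the one with the highest mean over the arrays among those assigned to a single gene. A probe set was available in this way for 42 of the 43 genes, out of 18193 genes measured. Ccnb1, which encodes cyclin B1, was not analysed here. The 42 genes comprise 15 that act in DNA replication, 19 that act in mitosis or are made mainly in G2 and mitosis, 6 regulators of G1 and of entry into S phase, and 2 inhibitors of cyclin-dependent kinases.

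Cell division in the interfollicular epidermis takes place mainly in the basal layer, and cells that leave it stop dividing as they differentiate. D-type cyclins and cyclin E with their kinases inactivate the RB proteins and release E2F factors, which switch on the genes of DNA replication. The genes of mitosis are switched on later, by the MuvB complex with B-MYB and FOXM1, and the DREAM complex represses many of them in resting cells. The inhibitors p21 (Cdkn1a) and p27 (Cdkn1b) bind cyclin-kinase complexes, and p21 is a classic target of p53.

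Arrays of 9 mice were available, 5 of the inactivated group and 4 controls, with 1 array per mouse. All 9 mice were homozygous for a floxed Alox12b allele on an SKH1 hairless background (5 backcross generations), and all received 3 intraperitoneal injections of 1 mg tamoxifen at 8 weeks of age. The inactivated group (Alox12b fl/fl Cre) also carried Cre-ERT2, a recombinase active only with tamoxifen, under the keratin 14 promoter, which is active in basal keratinocytes. The control littermates (Alox12b fl/fl) lacked it, so effects of losing Alox12b and of active Cre cannot be told apart. Epidermis was scratched off frozen skin 6 days after tamoxifen. In such bulk tissue, fewer dividing cells and less RNA per dividing cell cannot be told apart either.

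Levels below are the deposited log2 values, and array values are listed in replicate order, which carries no meaning. A difference is the inactivated mean less the control mean, in log2 units, given with limma's standard error (±). A gene passed where the p-value adjusted over all 45037 probe sets was below 0.05. Permutation p-values are exact and two-sided over the 126 ways of splitting 9 arrays into 5 and 4, so 0.00794 is the smallest they can give.

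Array medians lay between 4.34 and 4.42. The probe set of Alox12b was itself higher in the inactivated group, by 0.61 ± 0.14 (adjusted p = 0.00694). Where it lies relative to the floxed exons is not given in the sources used here, so it does not check the labels. The basal keratin Krt14 and the suprabasal keratin Krt10 read high in both groups, though not both at like levels. Krt14 averaged 13.12 ± 0.05 (SD, n = 5) and 12.65 ± 0.08 (SD, n = 4), a rise of 0.47 ± 0.06 (adjusted p = 0.000445), and Krt10 averaged 13.31 ± 0.16 (SD, n = 5) and 13.49 ± 0.02 (SD, n = 4). Other keratins were far lower in the inactivated group: Krt15 averaged 8.59 against 11.82, Krt77 5.76 against 12.85 and Krt2 2.07 against 9.12. The 2.07 of Krt2 lay below 4.40, the median of all probe set means, so its presence in that group is not shown. Xist and Y-linked probe sets read 3 inactivated mice (replicates 3, 4 and 5) and 1 control (replicate 1) as female.

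Promoter sequences are shown first because the genes of replication and of mitosis carry some elements near their starts at different rates. RefSeq promoters (GRCm38.p6, 250 bases before to 50 after the start) were matched for 32 of the 42 genes. Searched on both strands were E2F-type sites (TTTCCCGC, TTTGGCGC, TTTCGCGC or TTTCCCGG), the cell cycle homology region or CHR (TTTGAA or TTTAAA) and the CCAAT box (CCAAT). TTTGGCGC on one strand can overlap TTTCGCGC on the other, and TTTAAA reads the same on both strands.

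The 6 sequences that follow are the 150 bases before the start, 5′ to 3′ on the gene's strand, with matches in capitals. Read on the opposite strand, CCAAT appears as ATTGG and TTTGAA as TTCAAA. Cdc20 (minus strand, chr4:118437344-118437493), Cdk1 (minus strand, chr10:69352913-69353062), Ube2c (plus strand, chr2:164769779-164769928) and Top2a (minus strand, chr11:99024190-99024339) are examples of the mitosis genes. The first 3 rose in the inactivated group and Top2a did not pass. Mcm6 (minus strand, chr1:128359706-128359855) and Rrm2 (plus strand, chr12:24708104-24708253) stand for the replication genes: the first did not pass and the second rose.
Cdc20: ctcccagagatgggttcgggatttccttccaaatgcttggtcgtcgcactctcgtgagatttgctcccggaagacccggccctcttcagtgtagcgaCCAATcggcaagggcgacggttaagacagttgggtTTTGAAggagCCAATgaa
Cdk1: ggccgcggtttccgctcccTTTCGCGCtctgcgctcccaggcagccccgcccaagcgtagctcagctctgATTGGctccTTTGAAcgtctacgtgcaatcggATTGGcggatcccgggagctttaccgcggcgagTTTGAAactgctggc
Ube2c: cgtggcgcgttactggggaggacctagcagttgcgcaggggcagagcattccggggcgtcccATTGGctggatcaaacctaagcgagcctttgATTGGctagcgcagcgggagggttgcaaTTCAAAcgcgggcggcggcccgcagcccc
Top2a: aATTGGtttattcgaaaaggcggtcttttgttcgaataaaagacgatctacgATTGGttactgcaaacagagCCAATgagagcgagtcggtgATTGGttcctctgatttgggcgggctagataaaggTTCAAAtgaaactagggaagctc
Mcm6: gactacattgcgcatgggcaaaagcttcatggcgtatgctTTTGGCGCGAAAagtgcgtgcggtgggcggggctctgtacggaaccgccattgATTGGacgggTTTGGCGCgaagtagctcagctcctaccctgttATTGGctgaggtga
Rrm2: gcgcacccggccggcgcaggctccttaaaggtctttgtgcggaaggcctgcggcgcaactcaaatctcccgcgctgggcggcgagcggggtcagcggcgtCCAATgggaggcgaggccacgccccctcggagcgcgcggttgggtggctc

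All 4 mitosis promoters shown hold a CHR near the start, together with CCAAT boxes. The nearest CHR lies 18 bases before the start in Cdc20, 15 in Cdk1, 29 in Ube2c and 23 in Top2a. Other mitosis promoters differ. Aurka, Bub1, Bub1b and Hmmr hold no CHR in the 250 bases before the start. They are not all without one, since the whole 300-base window also takes in bases after the start. Over that window a CHR was found in 13 of the 14 mitosis genes with a promoter. In Birc5 and Ccnb2 the CHR lies 220 and 167 bases before it. Aurka and Birc5 also rose. Mcm6 shows E2F-type sites and CCAAT boxes but no CHR, and the Rrm2 window shows a single CCAAT box. Over the whole 300-base window, both a CHR and a CCAAT box were found in 12 of the 14 mitosis genes with a promoter (85.7%), in 4 of 13 replication genes (30.8%) and in 13.4% of all 27025 promoters. E2F-type sites were found in 6 of 13 replication genes (46.2%), 2 of 14 mitosis genes (14.3%) and 3.53% of all promoters. A match describes the letters and shows no binding.

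Of the 42 genes, 12 were higher in the inactivated group, 2 were lower and 28 did not pass. The 12 are 28.6% of the genes, where 15.5% of all 18193 genes were higher, and the 2 are 4.76%, where 18.9% of all genes were lower. Their median difference was 0.35, against 0.03 over all genes. Differences reached 1 or more in size in 5 genes: Rrm2, Aurka and Ccnd1 were higher, and Ccnd2 and Cdkn1b lower. In 7 genes every inactivated array lay above every control array (16.7%, against 14.0% of all genes), and in 2 every one lay below (4.76%, against 17.6%).

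**Figure D1:**
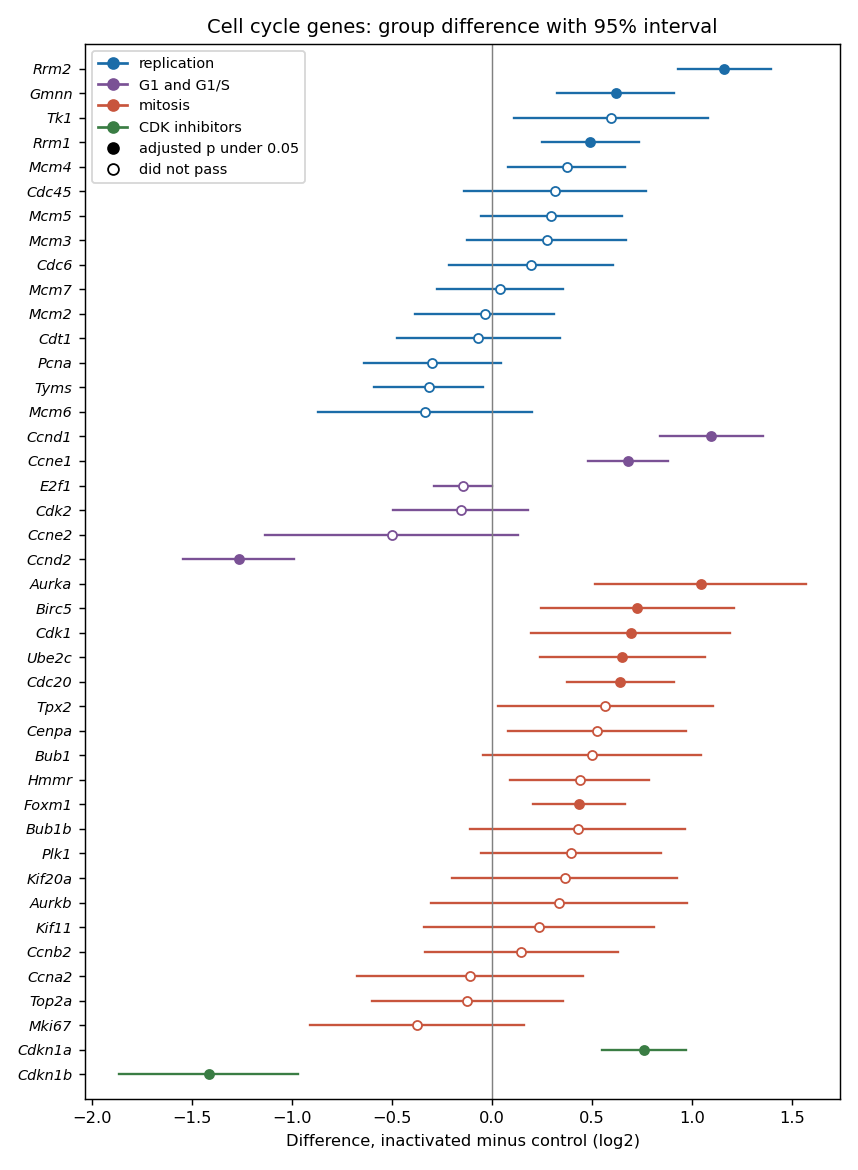
Each row is 1 gene, with the log2 difference (inactivated minus control, x axis) as a point and its 95% interval as a line, coloured by role; filled points passed at an adjusted p below 0.05 and open points did not. Filled points lie right of 0 for 12 genes and left of it for Ccnd2 and Cdkn1b.

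Among the 15 replication genes, 3 rose (Rrm2, Gmnn and Rrm1), none fell and 12 did not pass, with a median difference of 0.27 and a range from -0.33 to 1.16. The share that rose, 3 of 15, lay near the 15.5% of all genes, and groups separated upwards in 13.3%, against 14.0% of all genes. The genes that rose were both listed subunits of ribonucleotide reductase, the enzyme that makes deoxyribonucleotides, and geminin, which holds back relicensing of origins.

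Rrm2 encodes the subunit of ribonucleotide reductase whose level follows S phase. It read 9.28, 9.36, 9.53, 9.52 and 9.62 on the inactivated arrays and 8.54, 8.07, 8.32 and 8.28 on the controls. The groups did not overlap, and the difference of 1.16 ± 0.11 was 2.24-fold (95% interval of the log2 difference 0.93 to 1.40; adjusted p = 3.39e-05; exact permutation p = 0.00794). Rrm2 was read by 2 further probe sets, which were higher by 1.33 and 1.42.

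Rrm1, the large catalytic subunit, read 8.57, 8.81, 8.69, 8.72 and 9.07 on the inactivated arrays and 8.50, 8.19, 8.19 and 8.23 on the controls. The lowest inactivated array lay just above the highest control, and the difference was 0.49 ± 0.11 (adjusted p = 0.00707; exact permutation p = 0.00794), or 0.32 as the mean of its probe sets (adjusted p = 0.0406). Gmnn, which encodes geminin, read 7.22, 7.66, 7.65, 7.72 and 7.93 on the inactivated arrays and 7.24, 6.89, 6.93 and 7.02 on the controls. Here inactivated replicate 1 fell below control replicate 1, so the groups overlapped, and the difference was 0.62 ± 0.13 (adjusted p = 0.00562; exact permutation p = 0.0238).

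Mcm2 to Mcm7 encode the 6 subunits of the MCM helicase, the ring that is loaded at origins and unwinds DNA. None of them passed, and their differences ran from -0.33 ± 0.24 for Mcm6 (adjusted p = 0.333) to 0.37 ± 0.13 for Mcm4 (adjusted p = 0.0575). A second, dimmer probe set of Mcm4 passed with 0.57 (adjusted p = 0.00565). Mcm2 read 7.17, 7.40, 7.46, 7.41 and 8.05 on the inactivated arrays and 7.72, 7.47, 7.34 and 7.60 on the controls. The groups overlapped widely, with a difference of -0.04 ± 0.16 (95% interval -0.38 to 0.31; adjusted p = 0.888). Cdc6, Cdt1 and Cdc45, which load or activate the helicase, had differences of 0.19, -0.07 and 0.32, and none passed.

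Pcna encodes the sliding clamp that tethers DNA polymerases to the template. It read 9.79, 10.09, 10.07, 10.16 and 10.49 on the inactivated arrays and 10.83, 10.38, 10.24 and 10.23 on the controls. The groups overlapped and the difference was -0.30 ± 0.15 (95% interval -0.64 to 0.04; adjusted p = 0.177). Tk1, the thymidine kinase of the salvage pathway, had a difference of 0.60 ± 0.22 (adjusted p = 0.0647), and thymidylate synthase (Tyms) had -0.31 ± 0.12 (adjusted p = 0.0814). With sex in the model, Mcm6, Pcna and Tyms passed as lower, with -0.55, -0.44 and -0.42 (adjusted p = 0.0445, 0.0215 and 0.0112). The chosen probe set of Tyms was dim. It averaged 3.05 in the inactivated group and 3.37 in the controls, below 4.40, the median of all probe set means.

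Of the 19 mitosis genes, 6 rose (Aurka, Birc5, Cdk1, Ube2c, Cdc20 and Foxm1), none fell and 13 did not pass. The higher share was 31.6%, against 15.5% of all genes, while the groups separated upwards in 10.5%, against 14.0% of all genes. The median difference was 0.44, with a range from -0.37 to 1.04. Differences were above 0 in 16 of the 19, a larger share than the 9953 of all 18193 genes.

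Cdc20, the activator of the anaphase-promoting complex that the spindle checkpoint holds in check, read 8.55, 8.89, 8.53, 8.83 and 9.09 on the inactivated arrays and 8.20, 7.97, 8.14 and 8.23 on the controls. The groups did not overlap, and the difference of 0.64 ± 0.12 was 1.56-fold (adjusted p = 0.00286; exact permutation p = 0.00794). Foxm1, the transcription factor of the G2 and mitosis programme, read 6.34, 6.14, 6.42, 6.21 and 6.31 on the inactivated arrays and 6.12, 5.71, 5.91 and 5.65 on the controls. These groups did not overlap either, though only narrowly, and the difference was 0.44 ± 0.10 (adjusted p = 0.00993; exact permutation p = 0.00794). The mean of its 4 probe sets gave 0.25 (adjusted p = 0.00502).

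Aurka encodes Aurora A, the kinase of centrosomes and spindle poles, and had the largest difference of the mitosis genes by the chosen probe sets. It read 5.52, 6.16, 5.90, 6.07 and 6.83 on the inactivated arrays and 5.56, 4.82, 4.84 and 4.99 on the controls. Inactivated replicate 1 was slightly below control replicate 1, and the difference of 1.04 ± 0.24 was 2.06-fold (adjusted p = 0.00811; exact permutation p = 0.0238). A second, much dimmer Aurka probe set had -0.19 (adjusted p = 0.235), and the mean of both gave 0.42 (adjusted p = 0.0476), below Cdk1, Birc5, Ube2c and Cdc20.

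Cdk1, the kinase that drives entry into mitosis, read 6.99, 7.49, 7.47, 7.55 and 8.04 on the inactivated arrays and 7.46, 6.64, 6.57 and 6.58 on the controls. Control replicate 1 stood above the other controls and within the inactivated range, and the difference was 0.69 ± 0.23 (adjusted p = 0.0409; exact permutation p = 0.0476). Birc5, which encodes survivin of the chromosomal passenger complex, read 6.92, 7.61, 7.27, 7.59 and 8.12 on the inactivated arrays and 7.17, 6.47, 6.69 and 6.76 on the controls. With the same overlap through control replicate 1, its difference was 0.73 ± 0.22 (adjusted p = 0.0297; exact permutation p = 0.0317). Ube2c, the ubiquitin-conjugating enzyme that works with the anaphase-promoting complex, read 7.85, 8.44, 8.04, 8.08 and 8.76 on the inactivated arrays and 7.98, 7.38, 7.47 and 7.50 on the controls. Its difference was 0.65 ± 0.19 (adjusted p = 0.0240; exact permutation p = 0.0317), and its groups overlapped at the same place.

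The calls of these 3 genes were lost when single mice were left out, while the differences stayed positive. Each of Cdk1, Birc5 and Ube2c no longer passed without control replicate 2, 3 or 4 or without inactivated replicate 2. Cdk1 also missed without inactivated replicate 3, 4 or 5, and Birc5 without inactivated replicate 4. With sex in the model Birc5 and Ube2c did not pass (adjusted p = 0.0569 and 0.0530). With control replicate 2 left out, for instance, the differences were 0.64, 0.63 and 0.59 for Cdk1, Birc5 and Ube2c, close to those reported, and the adjusted p was 0.106, 0.0900 and 0.0730.

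Mki67, the gene of the proliferation antigen Ki-67, did not pass. It read 7.81, 8.66, 8.30, 8.59 and 9.34 on the inactivated arrays and 9.08, 8.80, 8.92 and 8.86 on the controls. All but one of the inactivated arrays lay below every control and the remaining one, replicate 5, above every control, with a difference of -0.37 ± 0.24 (95% interval -0.91 to 0.16; adjusted p = 0.272; exact permutation p = 0.254). Without inactivated replicate 5 the difference was -0.58 and passed (adjusted p = 0.0305).

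Top2a, the topoisomerase that untangles sister chromatids, read 8.07, 8.62, 8.19, 8.40 and 9.21 on the inactivated arrays and 9.01, 8.46, 8.50 and 8.50 on the controls, with wide overlap. Its difference was -0.12 ± 0.22 (95% interval -0.60 to 0.36; adjusted p = 0.705). Plk1, the kinase Polo-like kinase 1, read 5.74, 6.54, 6.27, 6.44 and 7.04 on the inactivated arrays and 5.98, 6.03, 5.95 and 6.09 on the controls. The inactivated group both undershot and overshot the controls, and the difference of 0.39 ± 0.20 did not pass (adjusted p = 0.174). The other mitosis genes that did not pass were Ccna2 and Ccnb2, which encode cyclins, and the spindle, kinetochore and checkpoint genes Bub1, Bub1b, Aurkb, Cenpa, Kif11, Kif20a, Tpx2 and Hmmr, with differences from -0.11 for Ccna2 to 0.57 for Tpx2.

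**Figure D2:**
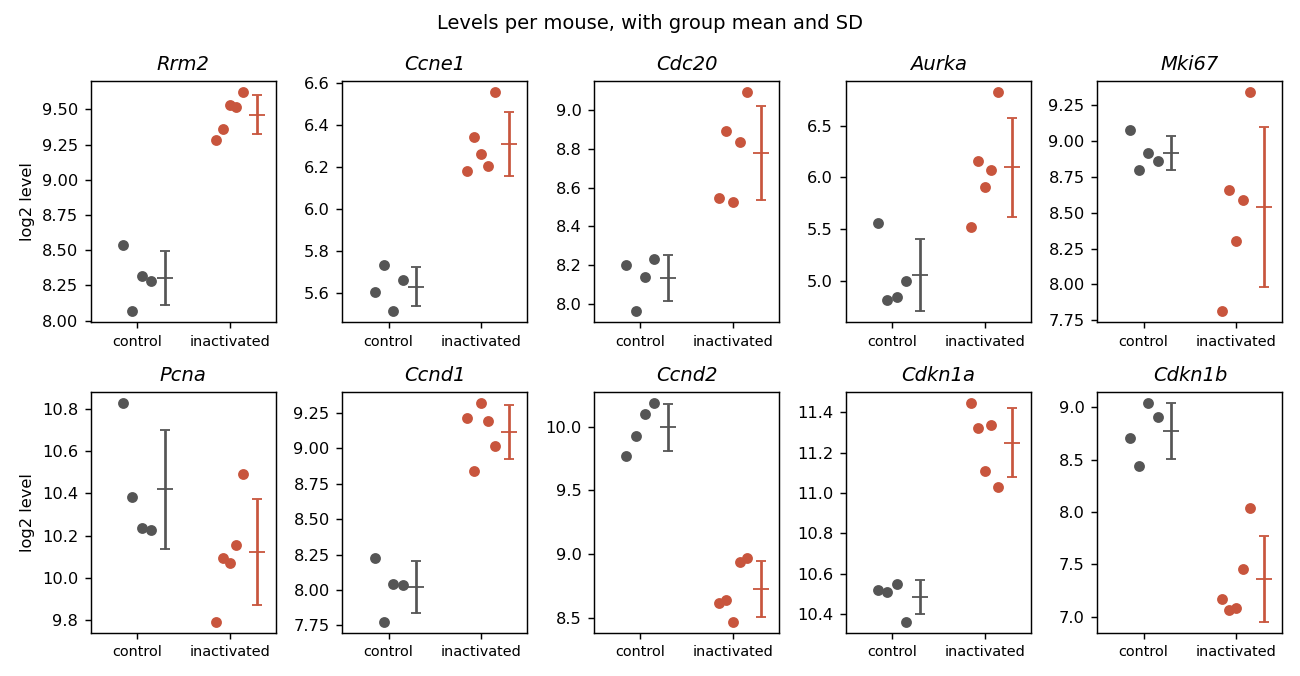
The log2 levels of 10 genes are drawn as 1 point per mouse, controls in grey and inactivated in orange, with the group mean and SD beside them; each panel has its own axis, so heights are not compared between genes. Rrm2, Ccne1, Cdc20, Ccnd1 and Cdkn1a are higher without overlap, Ccnd2 and Cdkn1b lower without overlap, and Aurka, Mki67 and Pcna overlap.

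Spread within groups was shared across genes. Over the 34 replication and mitosis genes, inactivated replicate 5 gave the highest inactivated value for 32 and inactivated replicate 1 the lowest for 29, while control replicate 1 gave the highest control value for 32. The SD was larger in the inactivated group for 28 of the 34 genes, with a median SD of 0.384 against 0.192 in the controls. Inactivated replicate 5 and control replicate 1 were both read as female, and the part of sex in the order of the mice was not tested.

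Leaving out single mice moved the count of genes that passed. Without inactivated replicate 1, 20 of the 42 genes were higher, in place of 12: Bub1, Bub1b, Cenpa, Hmmr, Mcm4, Plk1, Tk1 and Tpx2 were added. Without inactivated replicate 5 the count was 11, and without both inactivated replicate 5 and control replicate 1, a choice made after seeing the data, it was 14. All 14 genes that had passed kept their sign within males (2 against 3 mice) and within females (3 against 1). They had passed on these same mice, so this is no separate check. Of all 42 genes, passed or not, 40 kept their sign within males, who were among the mice that set it. Within females, Cdc45, Mcm7 and Kif20a turned sign, to -0.07, -0.06 and -0.02.

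**Figure D3:**
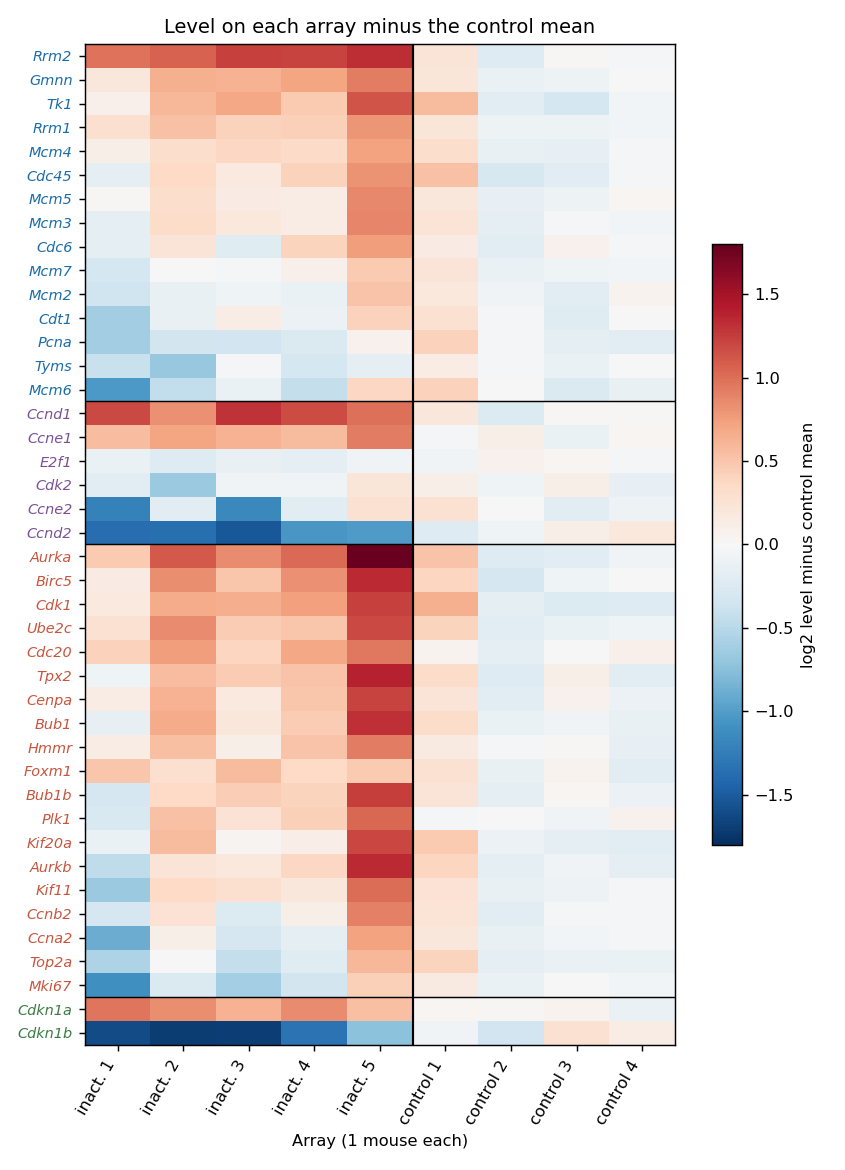
Colour gives each gene's log2 level on an array minus that gene's control mean (red higher, blue lower, scale from -1.8 to 1.8), with genes in rows by role and the 9 arrays in columns. The column of inactivated replicate 5 is the reddest over the replication and mitosis genes, and inactivated replicate 1 and control replicate 1 stand apart from the rest of their groups.

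The medians of the replication genes and of the mitosis genes were set side by side on each array, as deviations from the control mean. For the replication genes they were -0.17, 0.31, 0.15, 0.13 and 0.75 on the inactivated arrays and 0.24, -0.13, -0.13 and -0.04 on the controls. For the mitosis genes they were -0.12, 0.54, 0.26, 0.43 and 1.18 on the inactivated arrays and 0.27, -0.16, -0.06 and -0.11 on the controls. Both medians were highest on replicate 5 and lowest on replicate 1 of the inactivated group, the order of the other mice differed between them, and both were above 0 in all inactivated mice but replicate 1.

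Replication minus mitosis, the gap was -0.05, -0.22, -0.11, -0.29 and -0.43 on the inactivated arrays and -0.03, 0.03, -0.07 and 0.07 on the controls. Over the group differences it was -0.16, with a pooled SD across arrays of 0.123, and the gap of inactivated replicate 1 lay within the control range. This is a description, since the genes were grouped with earlier results known.

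**Figure D4:**
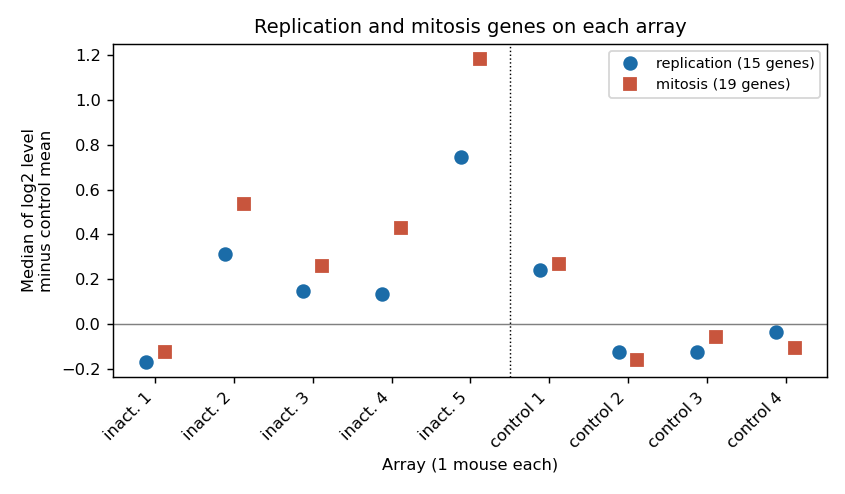
For each array (x axis), the median over the 15 replication genes (circles) and over the 19 mitosis genes (squares) of the log2 level minus the gene's control mean is drawn on the y axis. The squares lie above the circles on the 5 inactivated arrays and the pair nearly coincides on inactivated replicate 1; inactivated replicate 5 reaches 0.75 and 1.18.

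The G1 regulators moved in opposite directions. Ccnd1 (cyclin D1) and Ccne1 (cyclin E1) rose, Ccnd2 (cyclin D2) fell, and Ccne2, Cdk2 and E2f1 did not pass.

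Ccnd1 read 9.21, 8.84, 9.32, 9.20 and 9.01 on the inactivated arrays and 8.22, 7.77, 8.04 and 8.04 on the controls. The difference of 1.10 ± 0.12 was 2.14-fold, with no overlap (95% interval 0.84 to 1.36; adjusted p = 8.78e-05; exact permutation p = 0.00794), and all 3 of its probe sets passed. Ccnd2, another D-type cyclin, read 8.62, 8.64, 8.47, 8.94 and 8.97 on the inactivated arrays and 9.77, 9.92, 10.10 and 10.19 on the controls. It fell by 1.26 ± 0.13, 2.40-fold, again with no overlap (95% interval -1.54 to -0.99; adjusted p = 5.67e-05; exact permutation p = 0.00794). All 7 probe sets of Ccnd2 passed, with differences from -1.26 to -1.72.

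Ccne1, the cyclin that takes cells from G1 into S phase with CDK2, read 6.18, 6.34, 6.26, 6.20 and 6.56 on the inactivated arrays and 5.61, 5.73, 5.52 and 5.66 on the controls. The difference of 0.68 ± 0.09 was 1.60-fold with no overlap (adjusted p = 0.000346; exact permutation p = 0.00794). Its relative Ccne2 had a difference of -0.50 ± 0.29, from overlapping groups (adjusted p = 0.217). E2f1, an activator of S-phase genes, read 5.18, 5.07, 5.17, 5.16 and 5.25 on the inactivated arrays and 5.25, 5.39, 5.34 and 5.27 on the controls. The inactivated values ended where the controls began, and the difference of -0.14 ± 0.07 did not pass (adjusted p = 0.126).

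The 2 inhibitors diverged as well. Cdkn1a (p21) read 11.45, 11.32, 11.11, 11.33 and 11.03 on the inactivated arrays and 10.52, 10.51, 10.55 and 10.36 on the controls. It rose by 0.76 ± 0.10, 1.70-fold, with no overlap (adjusted p = 0.000231; exact permutation p = 0.00794). Cdkn1b (p27) read 7.17, 7.07, 7.08, 7.45 and 8.04 on the inactivated arrays and 8.71, 8.44, 9.05 and 8.91 on the controls. It fell by 1.41 ± 0.20, 2.66-fold, with no overlap (95% interval -1.86 to -0.97; adjusted p = 0.000539; exact permutation p = 0.0159), and its second probe set fell by 0.95.

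Further cell cycle genes came from 10 lists, of which 192 genes were measured: 38 were higher, 18 lower and 136 did not pass, with a median difference of 0.11. The higher share of 19.8% lay near the 15.5% of all genes, and the lower share was 9.38% against 18.9%. The p53 target list alone held 13 of the 38. The lists and all genes named from them were chosen with earlier results of these data known.

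Among 20 genes of origin licensing and firing, 4 were higher (a share near the 15.5% of all genes) and 1 lower: Orc1, a subunit of the origin recognition complex, rose by 0.99 ± 0.14 (adjusted p = 0.000471) and Dbf4 by 0.86 ± 0.10 (adjusted p = 0.000184), while Cdc7, the kinase that Dbf4 activates, fell by 0.66 ± 0.22 (adjusted p = 0.0459). Of 28 fork and DNA synthesis genes, 26 did not pass. The share was 3.57% each way, against 15.5% of all genes higher and 18.9% lower. The flap nuclease Fen1 rose by 0.28 ± 0.08 (adjusted p = 0.0258) and the polymerase delta subunit Pold3 fell by 0.54 ± 0.12 (adjusted p = 0.00689). Among 15 genes of the replication checkpoint and homologous recombination, only Brca2 passed, with 0.56 ± 0.15 (adjusted p = 0.0183). That is 6.67% of the list, against 15.5% of all genes higher.

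Nucleotide synthesis divided, with 5 of 13 genes higher and 4 lower (38.5% and 30.8%, against 15.5% and 18.9% of all genes). Cad, the enzyme that starts pyrimidine synthesis, rose by 1.00 ± 0.10 (adjusted p = 6.05e-05) and Nme1, a nucleoside diphosphate kinase, by 0.89 ± 0.08 (adjusted p = 2.25e-05). Paics of purine synthesis fell by 0.58 ± 0.11 (adjusted p = 0.00297). Rrm2b, the alternative small subunit of ribonucleotide reductase and a p53 target, fell by 0.59 ± 0.16 (adjusted p = 0.0210), opposite to Rrm2.

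In the mitotic lists most genes did not pass, as was so for 11943 of all 18193 genes. In the order that follows, 9.09%, 13.0% and 16.7% were higher, against 15.5% of all genes. The lower shares were 4.55%, 0% and 8.33%, against 18.9%. Of 22 kinetochore and spindle checkpoint genes 2 rose, Zwint by 0.60 ± 0.11 (adjusted p = 0.00292) and Zwilch by 0.64 ± 0.20 (adjusted p = 0.0318), and Cenpk fell by 0.61 ± 0.19 (adjusted p = 0.0320). Of 23 genes of spindle motors and cytokinesis 3 rose, among them the kinesins Kif18b, by 0.88 ± 0.11 (adjusted p = 0.000305), and Kifc1, by 0.65 ± 0.14 (adjusted p = 0.00680). Of 24 genes of mitotic entry, condensin and anaphase control 4 rose and 2 fell. Gtse1 and Cks1b rose by 0.54 and 0.51 (adjusted p = 0.00213 and 0.0162). Wee1, the kinase that restrains CDK1, and Espl1, the protease separase, fell by 0.80 and 0.71 (adjusted p = 0.0151 and 0.00967).

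Several of these calls were lost when 1 mouse was left out. In the replication lists this held for Cdc7 (any mouse but inactivated replicate 5; highest adjusted p = 0.125), Fen1 (control replicate 2, 3 or 4; 0.0817), Brca2 (control replicate 3; 0.0605) and Rrm2b (control replicate 3 or 4; 0.0673). In the mitotic lists it held for Zwilch (control replicate 2, 3 or 4, inactivated replicate 2 or 4; 0.0971), Cenpk (control replicate 1, 2 or 3, inactivated replicate 1, 2 or 3; 0.0886), Cks1b and Wee1 (control replicate 2; 0.0538 and 0.0505). Averaging all probe sets of a gene ended the calls of Cenpk, at -0.13 (adjusted p = 0.244), and Cdc7, at -0.40 (adjusted p = 0.102), and both were also lost with quantile normalisation (adjusted p = 0.0562 and 0.0725). The same averaging gave smaller differences that still passed for Cad (0.57), Dbf4 (0.44) and Pold3 (-0.35).

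Of 22 transcriptional regulators (RB, E2F and DREAM genes) 5 rose and 5 fell, 22.7% each way against 15.5% and 18.9% of all genes, with a median difference of 0.08. E2f7, an atypical E2F that represses transcription, read 7.31, 6.58, 6.56, 6.51 and 6.40 on the inactivated arrays and 5.30, 4.33, 4.67 and 4.78 on the controls. All inactivated mice were higher than all controls, and the difference of 1.90 ± 0.22 was 3.74-fold (adjusted p = 0.000127). The second atypical E2F, E2f8, rose by 1.22 ± 0.14 (adjusted p = 0.000151), or 0.64 as the mean of its probe sets (adjusted p = 0.00111). E2f2, an activating E2F, read 5.95, 6.39, 5.93, 6.43 and 6.67 on the inactivated arrays and 7.50, 7.23, 7.58 and 7.50 on the controls. It fell by 1.18 ± 0.15, with no overlap (adjusted p = 0.000315), and Rbl2, the pocket protein p130 of the DREAM complex, fell by 0.59 ± 0.10 (adjusted p = 0.00179).

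Among 6 further kinase inhibitors, 3 fell and none rose (50% and 0%, against 18.9% and 15.5% of all genes). Groups separated downwards in 3 of the 6 (50%, against 17.6% of all genes). Cdkn2b (p15) fell by 0.92 ± 0.16 (adjusted p = 0.00163) and Cdkn2c (p18) by 0.83 ± 0.13 (adjusted p = 0.00102), both without overlap between groups.

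Of the 19 measured genes of the p53 target list, which holds neither Cdkn1a nor Rrm2b, 13 rose and 1 fell (68.4% and 5.26%, against 15.5% and 18.9% of all genes), with a median difference of 0.70. Ccng1, which encodes cyclin G1, read 10.20, 10.06, 10.16, 10.33 and 9.73 on the inactivated arrays and 7.98, 7.92, 8.06 and 8.26 on the controls. The difference of 2.04 ± 0.12 was 4.11-fold (adjusted p = 2.94e-06). Aen, a nuclease induced by p53, rose by 1.43 ± 0.10 (adjusted p = 7.45e-06), and Sesn1 fell by 1.43 ± 0.22 (adjusted p = 0.000857). The median of these 19 genes was 0.53 to 0.79 above the control mean on every inactivated array and lowest on replicate 5, the array with the highest replication and mitosis medians. The inactivated mice alone carried active Cre, so its part in these levels and that of Alox12b loss cannot be told apart.

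**Figure D5:**
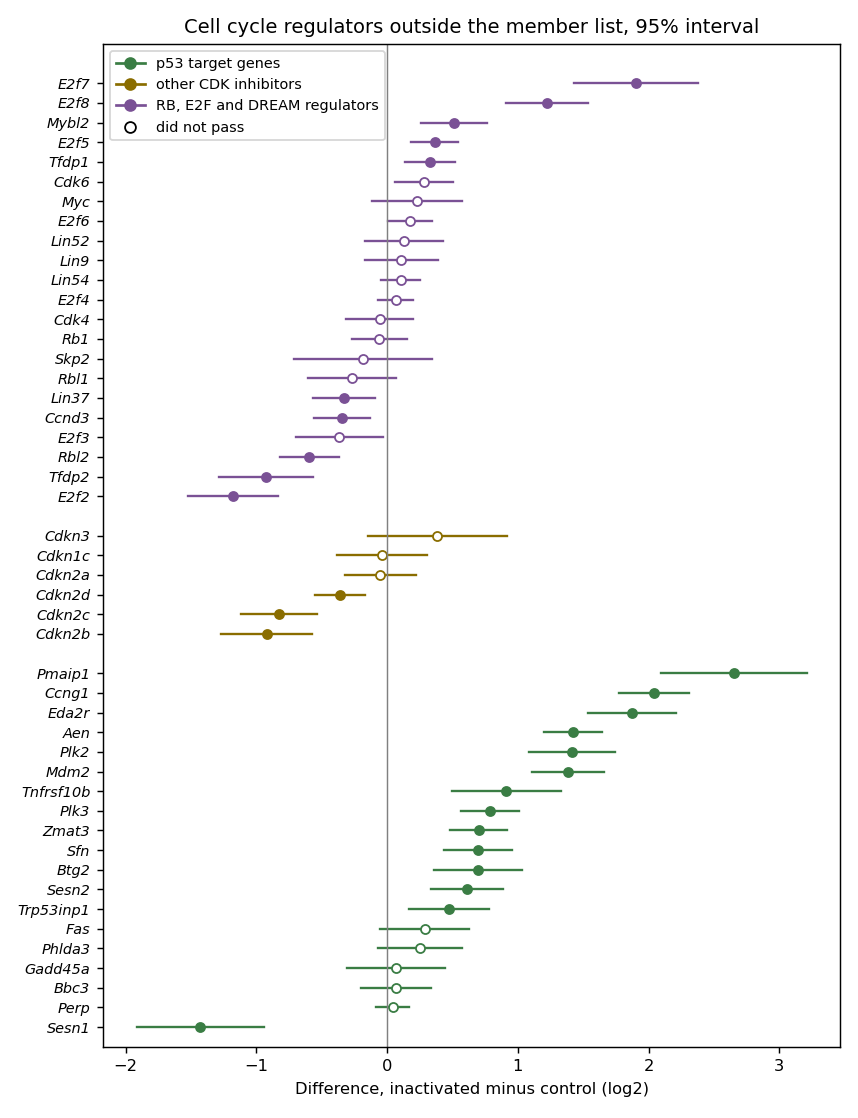
Log2 differences (inactivated minus control, x axis) with 95% intervals for 22 RB, E2F and DREAM regulators, 6 further kinase inhibitors and 19 p53 target genes; filled points passed and open points did not. Of the p53 targets 13 lie to the right as filled points and Sesn1 to the left, and E2f7 and E2f8 lie furthest right among the regulators.

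Other cell type markers moved with the groups. For comparison, 15.5% of all 18193 genes were higher and 18.9% lower. All 7 measured fibroblast markers were lower (log2 of the summed level 13.11 to 13.88 in the inactivated group and 14.00 to 14.65 in the controls), as were 6 of 8 leukocyte markers (12.11 to 12.69 against 12.81 to 13.13). All 5 melanocyte markers were higher (7.22 to 8.99 against 5.94 to 6.33). Of 8 basal keratinocyte markers 1 was higher (Krt14) and 4 lower (Krt15, Trp63, Col17a1 and Dst), with summed levels of 14.08 to 14.26 against 14.32 to 14.49. Their differences ran from -3.22 for Krt15 to 0.47 for Krt14, and Krt5, Itga6 and Itgb4 did not pass. All 4 hyperproliferative keratins were higher (14.92 to 15.05 against 12.06 to 12.86). Of 8 spinous and granular markers 2 were lower, Krt77 and Krt2, and the summed level was lower without overlap (14.73 to 15.20 against 15.44 to 15.48). The summed levels overlapped for the hair follicle and sebaceous list (2 of 10 higher, 1 lower; 10.27 to 11.06 against 10.65 to 11.07), the endothelial list (1 of 6 higher, 1 lower; 7.66 to 8.46 against 7.95 to 8.50) and the neutrophil list (1 of 4 higher, 1 lower; 6.82 to 6.96 against 6.89 to 7.52). Of 6 muscle markers 1 was higher and 1 lower (7.25 to 9.87 against 7.38 to 7.70), and their median on inactivated replicate 4 was 3.13 above the control mean, against at most 0.48 on the other arrays. No marker is at 0, since the arrays give every probe set a value. The part of these shifts in the cell cycle results was not tested.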

How the data were processed

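The authors deposited 1 table of log2 values for 45037 probe sets on 9 Affymetrix Mouse Genome U430 2.0 arrays of epidermal RNA, 1 mouse each. The submitters' processing notes name affy without a version. Normalisation and log base are not stated there or in the labels: the array maxima, 13.5, exceed 11.1, the natural logarithm of the scanner limit, so the values were read as log2. Platform annotation gave 1 symbol to 34945 probe sets, several to 932 and none to 9160, and Casc5, Sgol1 and Sgol2a were matched through RefSeq synonyms. limma (version 3.58.1, R 4.3.3) was fitted on all probe sets, with Benjamini-Hochberg adjustment, after checking the code on simulated data. Exact permutation tests, promoter searches and figures used Python 3.11.15. The p-values set each group difference against the spread between mice.

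Members and lists were chosen with earlier results of these data known. All members could be named, with array values for those that passed and for 12 chosen genes, of which those measured are shown. Each list could add up to 2 genes that rose and 2 that fell, by lowest adjusted p. Array values of Ccng1, E2f7 and E2f2 were added after seeing them. Replicate numbers did not pair the mice: same-numbered deviations correlated at -0.27, 0.01, -0.09 and 0.08. No set test was run. The alternatives were other normalisations, a filter on dim probe sets, moderation, probe set rules, sex, a replicate block, a threshold of 0.01 and leaving out each mouse. Some listed genes were not analysed here.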

Additional observations from a re-analysis of the deposited data

Results flagged for a closer look

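Among 140 groups of values checked (the 5 inactivated or 4 control arrays of a gene named here), 13 held 1 array whose gap to its nearest neighbour, as a share of the group's range, was above the 95% critical value of Dixon's test for groups of 4 or 5, where chance gives about 1 in 20. In 9 of them the array was control replicate 1, at the top of the controls, which was read as female. The gap was 0.894 of the control range for Rrm1 (8.50 against 8.23 for the next array), 0.936 for Top2a (9.01 against 8.50), 0.925 for Cdk1 (7.46 against 6.64), 0.866 for Bub1 (6.20 against 5.80) and 0.845 for Kif20a (5.10 against 4.52). It was 0.977 for Dbf4 (7.10 against 6.87), 0.865 for Cdc7 (6.99 against 6.54), 0.890 for Nme1 (9.24 against 9.03) and 0.831 for Kif18b (5.38 against 5.02).

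In the other 4, the array differed. Fen1 was highest in inactivated replicate 5 (8.88 against 8.64, a gap of 0.740 of the range) and E2f7 in inactivated replicate 1 (7.31 against 6.58, 0.795). Pold3 was lowest in control replicate 3 (6.61 against 6.75, 0.840), and Gtse1 was highest in control replicate 4 (5.90 against 5.69, 0.850).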

How the results depend on the processing

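Of the 14 genes that passed, 10 kept their call under all 19 alternatives; Cdk1, Birc5 and Ube2c lost it under several and Gmnn with males only. The count of higher genes was 12 as reported, 16 with quantile normalisation, 14 with array medians subtracted, 15 with the filter on dim probe sets and 9 at a threshold of 0.01. Leaving out 1 mouse gave 9 to 20 higher and 2 to 3 lower. With sex as a covariate 10 were higher and 5 lower, and with males only, chosen after seeing the data, 10 and 3. The replicate block gave 9 higher and 2 lower, although the numbers do not pair the mice. Replication minus mitosis ran from -0.23 to -0.14. Signs turned only in genes that had not passed. Mcm2 became 0.0236 with quantile normalisation, 0.00868 with array medians subtracted, 0.0604 as the mean of probe sets and 0.156 without x_at and s_at probe sets. Mcm7 became -0.0654 with the replicate block, -0.0748 with sex and -0.0848 with males only. Ccnb2 became -0.0425 with the block, Kif11 -0.0688 with males only and Ccna2 0.131 as the mean of probe sets. Leaving out 1 mouse gave -0.172 to 0.0468 for Mcm2, -0.0654 to 0.134 for Mcm7, -0.186 to 0.0744 for Cdt1, -0.301 to 0.00909 for Top2a, -0.316 to 0.0889 for Ccna2 and -0.0425 to 0.259 for Ccnb2. The cause of these shifts was not tested. Counts of the lists moved by over 1.5 times, or to or from none, in 112 cases. In 448 they moved by at most 1.5 times or not at all. No scaling moved the median of all genes by more than 0.1. The number of arrays limits the precision.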

Other observations

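Probe sets of one gene did not always give the same call. The 42 genes were read by 103 probe sets in all, and 30 genes had more than 1. Of these probe sets, 24 were higher, 9 lower and 70 did not pass. The 9 lower ones were the 7 of Ccnd2 and the 2 of Cdkn1b, so they are repeat readings. No share over all probe sets of the arrays is given here, so the counts are not compared with one. In 3 genes the chosen probe set did not pass and another one did. For Mcm4 the chosen probe set differed by 0.37 and the other by 0.57 (limma adjusted p = 0.0575 and 0.00565). For Hmmr, which encodes a spindle protein that also binds hyaluronan, the values were 0.44 and 0.61 (limma adjusted p = 0.0581 and 0.0385). For Tpx2, the activator of Aurora A at the spindle, they were 0.57 and 0.32 (limma adjusted p = 0.106 and 0.0406), and another probe set of Tpx2 had -0.20.

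Some p53 targets outside the rule for named genes, picked after their values were seen, had large differences. Pmaip1, which encodes the apoptosis protein Noxa, was higher by 2.65 ± 0.25 (limma adjusted p = 4.44e-05). Eda2r, a receptor for ectodysplasin A2, was higher by 1.87 ± 0.15 (limma adjusted p = 1.66e-05). Plk2, a Polo-like kinase, was higher by 1.41 ± 0.15 (limma adjusted p = 8.08e-05). Mdm2, the ubiquitin ligase that limits p53, was higher by 1.38 ± 0.12 (limma adjusted p = 3.02e-05). In each of these genes all 5 inactivated arrays lay above all 4 controls. They were picked on seen values, so this is no separate check. Over the p53 target list, groups separated upwards in 13 of 19 genes (68.4%, against 14.0% of all genes).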
